A study of Mus musculus with 23 samples.

Results

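The transcripts described here are those of 31 genes of cholesterol synthesis, uptake control, efflux and esterification, listed by name from known pathways, among 26014 genes measured on the arrays. The list was made with earlier results of these data known. They were followed in bone marrow-derived macrophages (BMDM) of male C57BL/6 mice aged 10 to 14 weeks, either wild-type (wt), deficient in the kinase MK2 (MK2-/-) or deficient in both MK2 and its relative MK3 (MK2/3-/-). Marrow cells had been kept for 9 days with 10 ng/ml M-CSF, the growth factor that drives macrophage differentiation, and all BMDM were then left in medium or given 100 ng/ml LPS, a bacterial cell wall component sensed by TLR4, for 120 min. Each RNA was hybridized alone to 1 Agilent mouse array, giving 23 arrays in 6 groups with 4 arrays each, except for MK2-/- BMDM in medium with 3. All 31 genes had a probe, 9 of them a pair of probes, and each of the 31 probes used was marked as well above background on all 23 arrays. Over all genes, 13078 of 26014 were so marked and had a value on every array. Shares over all genes given below thus include many genes of low signal. Levels are quantile-normalized log2 signals of 1 probe per gene, so that a difference of 1 is a change of 2-fold on the signal scale, and levels of different genes are not set against each other.

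Animal cells build cholesterol from acetyl-CoA through mevalonate, squalene and lanosterol. The membrane-bound transcription factor SREBP-2 raises the enzymes of this route when sterols in the endoplasmic reticulum fall, while INSIG proteins hold its escort SCAP back when sterols are plentiful. The nuclear receptors LXRα and LXRβ respond to oxysterols in the opposite situation and raise the exporters ABCA1 and ABCG1, by which macrophages hand cholesterol to lipoproteins, as well as the ubiquitin ligase IDOL, which limits lipoprotein uptake.

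The genotypes could be followed on the arrays themselves. Mapkapk2, the gene of MK2, averaged 12.22 ± 0.51 (log2 signal, SD, n = 4) in wt BMDM in medium, compared with 8.91 ± 0.17 (n = 3) in MK2-/- and 8.72 ± 0.16 (n = 4) in MK2/3-/- BMDM, and Mapkapk3, the gene of MK3, read 11.88 ± 0.22 (n = 4) in MK2/3-/- against 13.50 ± 0.28 (n = 4) in wt and 13.74 ± 0.14 (n = 3) in MK2-/- BMDM. LPS raised the Mapkapk2 signal in all 3 genotypes, to 14.77, 11.96 and 11.76, so that the knockout arrays stayed below wt but were not without signal. Of the macrophage markers, 7 of 7 measured were well above background on every array. Markers of other cells gave signal as well. Summed linear signals ran from 66296 to 170454 for 6 dendritic cell markers. Among these, Siglech was well above background on all 23 arrays and Xcr1 on 1. The sums ran from 3288 to 7399 for 8 lymphocyte markers and from 2405 to 4204 for 6 neutrophil and progenitor markers. Markers of fibroblasts and stromal cells, 8 genes led by Col1a1 and Col1a2, varied between cultures, with summed linear signals from 4633 to 110976 in wt, from 1287 to 36040 in MK2-/- and from 561 to 61699 in MK2/3-/- BMDM in medium. After LPS the ranges were 4175 to 92943, 1706 to 33736 and 1038 to 51550, and in each genotype the same culture was highest with and without LPS (culture 1 of wt, culture 4 of both knockouts). Of these 8 markers, Lum was not well above background on any array and Adipoq on 2 of 23. All arrays of a genotype were on 1 slide scanned together, so that a difference between genotypes and a difference between slides cannot be told apart, whereas LPS and medium were always compared within a slide.

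LPS changes passed the threshold for a minority of the 31 genes, and in both directions. Genes that did not pass may still have changed. In wt BMDM 6 genes rose and 5 fell (limma, adjusted p under 0.05), which is 11 of 31, in a comparison in which 17.9% of all genes passed (7.57% higher and 10.3% lower). In MK2-/- BMDM 6 rose and 3 fell, with 19.6% of all genes passing (8.04% higher and 11.5% lower), and in MK2/3-/- BMDM 7 rose and 4 fell, with 25.8% of all genes passing (11.2% higher and 14.5% lower). Acat2, Hmgcs1, Idi1, Cyp51 and Ch25h rose in all 3 genotypes, Insig1 in wt and MK2/3-/- BMDM, and the LXR target Abcg1 fell in all 3. The median change of the 31 genes was close to 0 in each genotype (wt -0.0022, MK2-/- 0.043 and MK2/3-/- 0.035 on the log2 scale), as was the median over all genes (-0.035, -0.036 and -0.053). Scaled to the 75th percentile of each array instead, 5 rose and 3 fell in wt, 7 rose and 1 fell in MK2-/-, and 7 rose and 0 fell in MK2/3-/- BMDM. With both arrays of the most stroma-rich culture of each genotype left out, a choice made after seeing the data, 6, 7 and 10 genes passed in wt, MK2-/- and MK2/3-/- BMDM. Each call was repeated under 11 alternative settings of the processing or the fit and without single arrays. With so few arrays, groups without overlap were common. LPS and medium arrays did not overlap for 7, 13 and 9 of the 31 genes in wt, MK2-/- and MK2/3-/- BMDM. Over all genes the shares were 23%, 33% and 27.2%. RNA was taken from whole cultures, so that fewer cells of a type and less RNA per cell cannot be told apart.

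**Figure D1:**
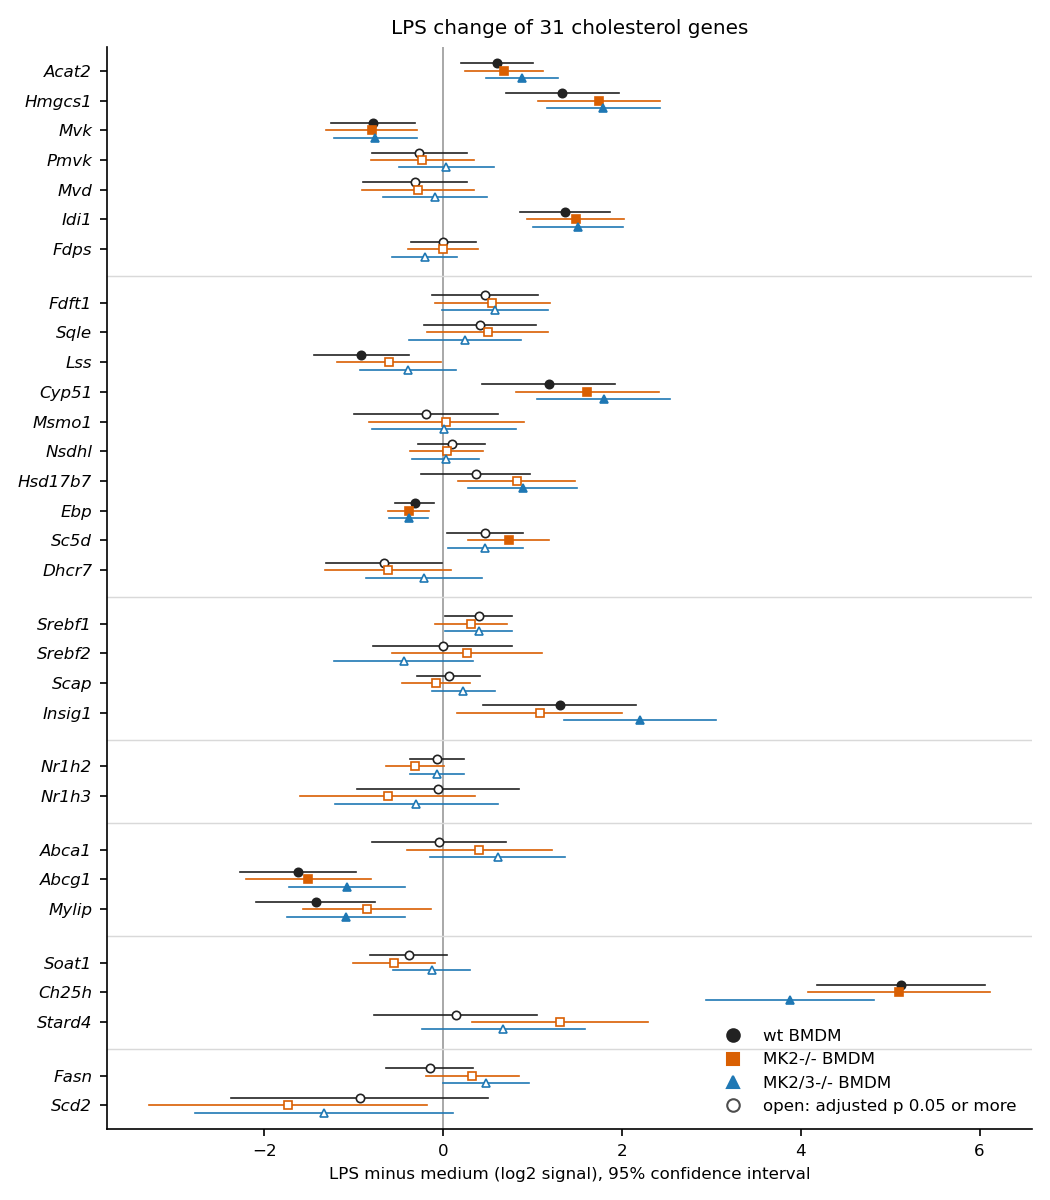
LPS minus medium on the log2 signal scale for the 31 genes, grouped from top to bottom into mevalonate steps, squalene and sterol steps, SREBP control, LXR receptors, LXR targets and efflux, sterol esters with oxysterol and transport, and fatty acid synthesis. Symbols are the differences of group means and lines their 95% confidence intervals in wt (circles), MK2-/- (squares) and MK2/3-/- BMDM (triangles), filled where the adjusted p was under 0.05. Ch25h lies far to the right at 3.88 to 5.12, whereas Abcg1 and Mylip lie to the left of 0 in all 3 genotypes.

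Promoters of the listed genes were searched for short motifs, and 6 of them are printed. Of the 31 genes, 25 had an entry in a table of RefSeq promoters on the build GRCm38.p6, whereas Fdps, Fdft1, Sqle, Abcg1, Stard4 and Scd2 had none. The 250 bases before the annotated start were searched on both strands for 6 motifs: the sterol element TCACNCCAC, the CCAAT box (bound by NF-Y, which works with SREBP), the GC box GGGCGG, the core TGACG of the cAMP element, the interferon element (GAAA, any 2 bases, GAAA) and the NF-kB type site (GGGA, any 2 bases, TTCC). The sequences below run 5′ to 3′ towards the start, with matches of any of these motifs on either strand in capitals (a match on the other strand reads as its complement, such as ATTGG for CCAAT). They are given for the 4 genes of synthesis and its control that rose most in MK2/3-/- BMDM, for Mylip, which fell, and for Ch25h. In the order printed, they lie at chr13:119690101-119690350 (+), chr13:8885356-8885605 (+), chr5:4104698-4104947 (-), chr5:28071162-28071411 (+), chr13:45389492-45389741 (+) and chr19:34475149-34475398 (-).
Hmgcs1: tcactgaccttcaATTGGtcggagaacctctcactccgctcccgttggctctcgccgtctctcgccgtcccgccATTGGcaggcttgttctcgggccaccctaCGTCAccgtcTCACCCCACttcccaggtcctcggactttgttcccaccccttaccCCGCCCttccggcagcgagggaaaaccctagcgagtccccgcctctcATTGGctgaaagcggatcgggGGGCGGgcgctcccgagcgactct
Idi1: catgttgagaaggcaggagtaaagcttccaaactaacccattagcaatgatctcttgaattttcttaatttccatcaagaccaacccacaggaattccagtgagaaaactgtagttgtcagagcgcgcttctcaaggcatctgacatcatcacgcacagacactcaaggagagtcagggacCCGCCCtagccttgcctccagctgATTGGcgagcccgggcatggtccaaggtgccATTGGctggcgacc
Cyp51: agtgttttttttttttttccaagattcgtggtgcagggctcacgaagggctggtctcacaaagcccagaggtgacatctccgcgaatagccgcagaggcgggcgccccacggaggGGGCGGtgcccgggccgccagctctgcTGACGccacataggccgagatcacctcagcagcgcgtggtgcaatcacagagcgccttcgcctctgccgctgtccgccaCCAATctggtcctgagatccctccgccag
Insig1: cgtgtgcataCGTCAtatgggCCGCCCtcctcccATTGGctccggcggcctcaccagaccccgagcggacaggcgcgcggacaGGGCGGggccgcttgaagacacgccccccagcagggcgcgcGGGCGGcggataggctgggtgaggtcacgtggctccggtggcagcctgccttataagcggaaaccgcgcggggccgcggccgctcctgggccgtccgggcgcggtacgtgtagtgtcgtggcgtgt
Mylip: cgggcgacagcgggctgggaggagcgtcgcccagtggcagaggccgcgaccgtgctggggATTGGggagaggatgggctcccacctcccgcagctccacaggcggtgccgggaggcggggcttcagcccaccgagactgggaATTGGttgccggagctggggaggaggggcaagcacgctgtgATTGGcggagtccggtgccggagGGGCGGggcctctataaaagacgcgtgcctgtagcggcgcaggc
Ch25h: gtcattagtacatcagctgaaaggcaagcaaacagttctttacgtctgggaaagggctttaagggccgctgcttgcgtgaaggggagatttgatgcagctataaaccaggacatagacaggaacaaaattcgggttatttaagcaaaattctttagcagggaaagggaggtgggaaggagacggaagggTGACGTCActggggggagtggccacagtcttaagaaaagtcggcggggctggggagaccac
The CCAAT box was found in 18 of the 25 promoters and in 34.5% of 27025 promoters of the same length, 1 per gene symbol, and the GC box in 17 of 25 and 32.9%. Both were in the promoters of genes that rose (Hmgcs1, Idi1, Cyp51 and Insig1), of genes that fell (Mvk, Lss, Ebp and Mylip) and of genes that did not pass, such as Msmo1 and Nsdhl. The sterol element in exactly these letters was found in Hmgcs1 alone among the 25 (1.04% of all promoters), and variants of it were not searched. The core TGACG was in 8 of 25 (17.9% of all promoters) and in the Ch25h promoter its matches on the opposite strands overlap to form a full palindrome, the interferon element was in Ebp alone (3.04%), and the NF-kB type site was in none of the 25 (1.17%). Overlapping matches were each counted, and a match is a run of letters, not a measured site.

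Among the 7 genes of the mevalonate steps, 3 rose, 1 fell and 3 did not pass in each of the 3 genotypes. Hmgcs1 (NM_145942) encodes the cytosolic HMG-CoA synthase of the mevalonate route. On the wt arrays it read 11.95, 12.11, 12.18 and 12.22 in medium and 12.82, 13.13, 14.05 and 13.80 after LPS, a rise of 1.34 (SE 0.302, adjusted p = 0.003434). In MK2-/- BMDM it read 11.99, 12.10 and 12.81 in medium and 13.76, 13.74, 14.21 and 14.45 after LPS, a rise of 1.74 (SE 0.326, adjusted p = 0.0006038). The MK2/3-/- arrays gave 12.09, 11.84, 12.13 and 12.71 in medium and 14.10, 13.12, 14.39 and 14.33 after LPS, a rise of 1.79 (SE 0.302, adjusted p = 0.0001527). In each genotype every LPS array lay above every medium array, and MK2/3-/- LPS replicate 2 was the lowest of its group. Idi1 (NM_145360), which isomerizes isopentenyl diphosphate, behaved alike. It read 11.29, 11.40, 11.53 and 11.06 in wt BMDM in medium and 12.07, 12.97, 13.13 and 12.58 after LPS (difference 1.37, SE 0.240, adjusted p = 0.0003405), and it rose by 1.48 (SE 0.259) in MK2-/- and by 1.51 (SE 0.240) in MK2/3-/- BMDM. For both genes the exact permutation test gave p = 0.0286 in each genotype, the smallest that these group sizes allow without pairing. That test ignores that medium and LPS arrays came in pairs from the same cultures. The limma call of both genes was kept when any single array was left out.

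Acat2 (NM_009338), the thiolase that starts the route by joining acetyl-CoA units, rose by 0.61 (SE 0.192, adjusted p = 0.0324) in wt, by 0.68 (SE 0.207, adjusted p = 0.0251) in MK2-/- and by 0.88 (SE 0.192, adjusted p = 0.001712) in MK2/3-/- BMDM. The wt call ended without wt medium replicate 1 or 2 or wt LPS replicate 2 or 3 (adjusted p between 0.0958 and 0.115), and the MK2-/- call without any of 6 of its 7 arrays (all but LPS replicate 1, adjusted p up to 0.0922). Of the 11 alternative settings, the wt call passed in 6 (adjusted p up to 0.143) and the MK2-/- call in 10. Mevalonate kinase, Mvk (NM_023556), was the gene of this group that fell, by 0.79 (SE 0.224, adjusted p = 0.0179) in wt, 0.80 (SE 0.242, adjusted p = 0.0237) in MK2-/- and 0.76 (SE 0.224, adjusted p = 0.0163) in MK2/3-/- BMDM. Its second probe read -0.46, -0.50 and -0.30 and did not pass in any genotype (adjusted p over all probes between 0.333 and 0.519), and the wt call of the probe used was also lost without wt medium replicate 3 or wt LPS replicate 2 (adjusted p between 0.0684 and 0.0807). Left-out arrays that ended the Mvk call in the knockouts were MK2-/- medium replicates 1 and 3, MK2-/- LPS replicates 1 and 2 (adjusted p up to 0.0983), MK2/3-/- medium replicates 3 and 4 and MK2/3-/- LPS replicates 1 and 2 (up to 0.0689). The Mvk fall passed in 5, 5 and 4 of the 11 alternative settings for wt, MK2-/- and MK2/3-/- BMDM. Pmvk, Mvd and Fdps, the next kinase, the decarboxylase and the farnesyl diphosphate synthase, did not pass in any genotype, with differences between -0.32 and 0.04.

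Of the 10 genes from squalene to cholesterol, 3 passed in each genotype. Cyp51 (NM_020010) encodes lanosterol 14α-demethylase, the first step after the sterol ring is closed. The wt arrays read 8.31, 8.29, 8.54 and 8.20 in medium and 8.53, 9.35, 10.21 and 9.98 after LPS, a rise of 1.18 (SE 0.353, adjusted p = 0.0241). In MK2-/- BMDM the arrays read 8.77, 8.52 and 9.15 in medium and 10.32, 9.77, 10.59 and 11.02 after LPS (1.62, SE 0.382, adjusted p = 0.00445), and in MK2/3-/- BMDM 8.50, 7.66, 8.57 and 8.96 in medium and 10.44, 9.47, 10.28 and 10.68 after LPS (1.80, SE 0.353, adjusted p = 0.0007027). The knockout groups did not overlap, whereas wt LPS replicate 1 fell within the range of the wt medium arrays. The wt call ended without wt medium replicate 2 or 4 or wt LPS replicate 3 or 4 (adjusted p between 0.0526 and 0.0945). Over the alternative settings and single arrays left out, it was kept in 13 of 19 repeats (adjusted p up to 0.109).

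The other calls of the sterol steps were smaller. Lss (NM_146006), the cyclase that makes lanosterol, fell in wt BMDM from 9.29, 8.90, 9.21 and 9.02 to 8.11, 7.64, 8.58 and 8.45 (difference -0.91, SE 0.256, adjusted p = 0.0163), without overlap of the arrays, and read -0.60 in MK2-/- and -0.39 in MK2/3-/- BMDM without passing. Without wt LPS replicate 2 the wt call was lost (adjusted p = 0.0739), as it was without the stroma-rich cultures (adjusted p = 0.0881). It was kept in 16 of 19 repeats over all settings and left-out arrays. Ebp (NM_007898), the sterol isomerase, fell by 0.32 (SE 0.102), 0.38 (SE 0.110) and 0.39 (SE 0.102) in wt, MK2-/- and MK2/3-/- BMDM (adjusted p = 0.0361, 0.0179 and 0.007881), but read 0.073, 0.040 and 0.030 when arrays were scaled to their 75th percentile instead of quantile normalized, a scaling that moved the median of all genes from -0.035, -0.036 and -0.053 to 0.11, 0.16 and 0.037. Its wt call ended without wt medium replicate 2, 3 or 4 or wt LPS replicate 1 or 2 (adjusted p up to 0.125), and its MK2-/- call without medium replicate 1 or LPS replicate 2 (up to 0.0742). Over all settings and left-out arrays, the Ebp call was kept in 10 of 19 repeats in wt, 13 of 18 in MK2-/- and 17 of 19 in MK2/3-/- BMDM.

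Sc5d (NM_172769), the sterol desaturase, rose in MK2-/- BMDM by 0.73 (SE 0.218, adjusted p = 0.0210). It read 0.47 in both other genotypes, where it did not pass, although the MK2/3-/- value passed in 2 of the 11 alternative settings, among them the culture as a block (adjusted p = 0.040). Its MK2-/- call ended without medium replicate 1 or 2 or LPS replicate 3 (adjusted p up to 0.117), and was kept in 14 of 18 repeats over all settings and left-out arrays. Hsd17b7 (NM_010476), a sterol ketoreductase, rose in MK2/3-/- BMDM by 0.89 (SE 0.291, adjusted p = 0.0284), a call that ended without medium replicate 2 or LPS replicate 1, 3 or 4 (up to 0.111). It passed in 7 of the 11 alternative settings. In MK2-/- BMDM it read 0.82 (adjusted p = 0.0756) and passed in 5 of 11, among them the fit with the culture as a block (adjusted p = 0.030). Its second probe, A_55_P1997936, passed in MK2-/- (0.97, adjusted p over all probes 0.0403) and not in MK2/3-/- BMDM (0.71, adjusted p over all probes 0.0896). The genotype in which this gene passed thus depended on the probe. Squalene epoxidase, Sqle (NM_009270), a rate-limiting oxygen-dependent step, did not pass. Its wt arrays read 11.45, 11.65, 11.01 and 11.13 in medium and 11.33, 11.79, 12.07 and 11.68 after LPS, a difference of 0.41 with a 95% interval from -0.22 to 1.04, and the differences in MK2-/- and MK2/3-/- BMDM were 0.50 and 0.24. Fdft1, Msmo1, Nsdhl and Dhcr7, which make squalene and trim or reduce the sterol, had differences between -0.66 and 0.59 and did not pass in any genotype.

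Of the 4 genes of SREBP control, read by the probes used, Insig1 (NM_153526), the sterol-regulated anchor of SCAP and itself an SREBP target, passed in wt and MK2/3-/- BMDM and no gene passed in MK2-/- BMDM. The wt arrays read 6.41, 7.60, 8.03 and 7.32 in medium and 7.83, 8.60, 9.81 and 8.34 after LPS (difference 1.31, SE 0.407, adjusted p = 0.0305). In MK2-/- BMDM, 8.09, 7.89 and 8.65 in medium stood against 8.71, 9.02, 9.41 and 10.01 after LPS (1.08, SE 0.440, adjusted p = 0.0986, and 0.036 with the culture as a block), and in MK2/3-/- BMDM 8.44, 7.46, 7.95 and 8.19 stood against 9.80, 9.80, 10.83 and 10.40 (2.20, SE 0.407, adjusted p = 0.000393). The knockout arrays did not overlap between treatments, whereas wt LPS replicate 1 lay below wt medium replicate 3. The wt call ended without wt medium replicate 1 or 4 or wt LPS replicate 2 or 3 (adjusted p between 0.0608 and 0.127), or without the stroma-rich cultures (1.27, adjusted p = 0.0549). Over the alternative settings and single arrays left out, it was kept in 12 of 19 repeats (adjusted p up to 0.188). Srebf1 (NM_011480), the gene of SREBP-1, read 0.40, 0.32 and 0.40 higher after LPS in wt, MK2-/- and MK2/3-/- BMDM and Scap 0.07, -0.08 and 0.23, and neither passed.

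**Figure D2:**
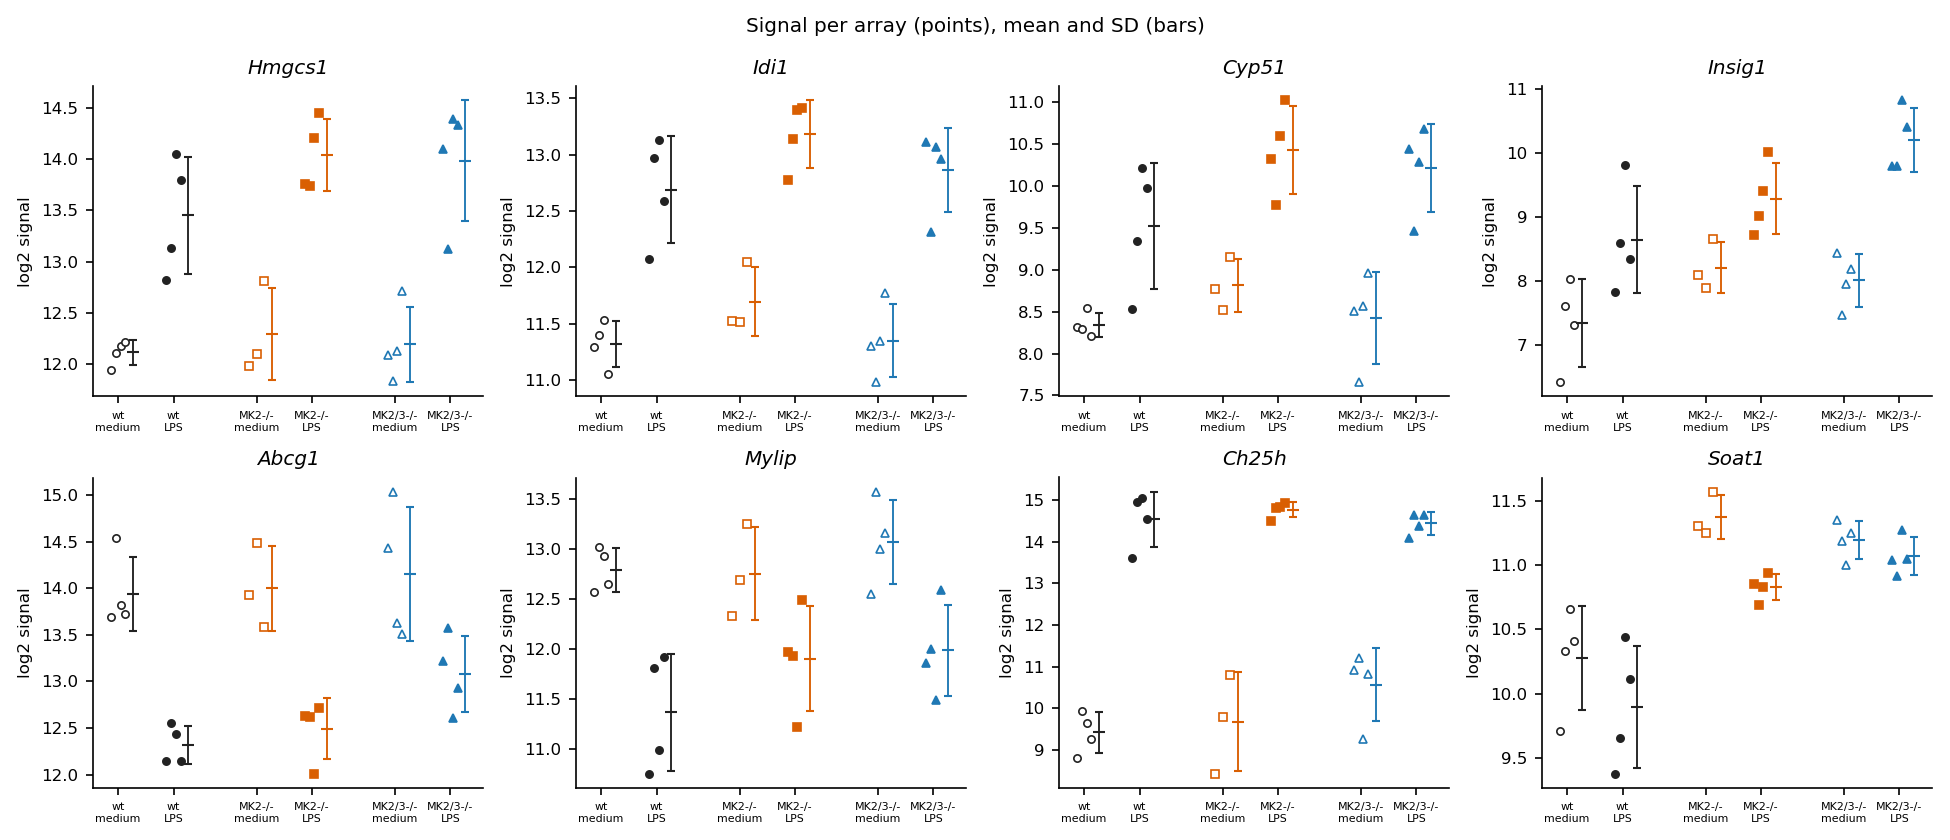
Log2 signal of 8 genes in every array, with open symbols for medium and filled symbols for LPS, and a bar for the mean and SD of each group beside its points. Hmgcs1, Idi1, Cyp51, Insig1 and Ch25h are higher with LPS and Abcg1 and Mylip lower, and for Soat1 all 15 knockout arrays (10.69 and above) are higher than all 8 wt arrays (10.66 and below).

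Srebf2 (NM_033218), the gene of SREBP-2, depended on the probe. The probe used, A_55_P2000487, gave differences of -0.00, 0.27 and -0.44 for wt, MK2-/- and MK2/3-/- BMDM, with adjusted p of at least 0.440. The second probe, A_51_P377508, rose in all 3 genotypes, by 0.92, 1.66 and 1.47 (adjusted p over all probes 0.004356, 2.416e-05 and 2.891e-05). Its wt arrays averaged 9.51 ± 0.23 (SD, n = 4) in medium and 10.42 ± 0.34 (n = 4) after LPS, and its groups did not overlap in any genotype. Stard4 (NM_133774), a carrier that moves cholesterol between membranes, was split in the same manner. The probe used, A_52_P384574, read 0.14, 1.31 and 0.67 without passing, although the MK2-/- value passed in 5 of the 11 alternative settings, among them the culture as a block (adjusted p = 0.020), and the second probe, A_52_P561205, rose by 1.44, 1.93 and 1.86 (adjusted p over all probes 0.0006081, 5.861e-05 and 2.661e-05). Which part of the transcript each probe reads was not analysed here, and a direction for these genes therefore holds for the named probe only.

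**Figure D3:**
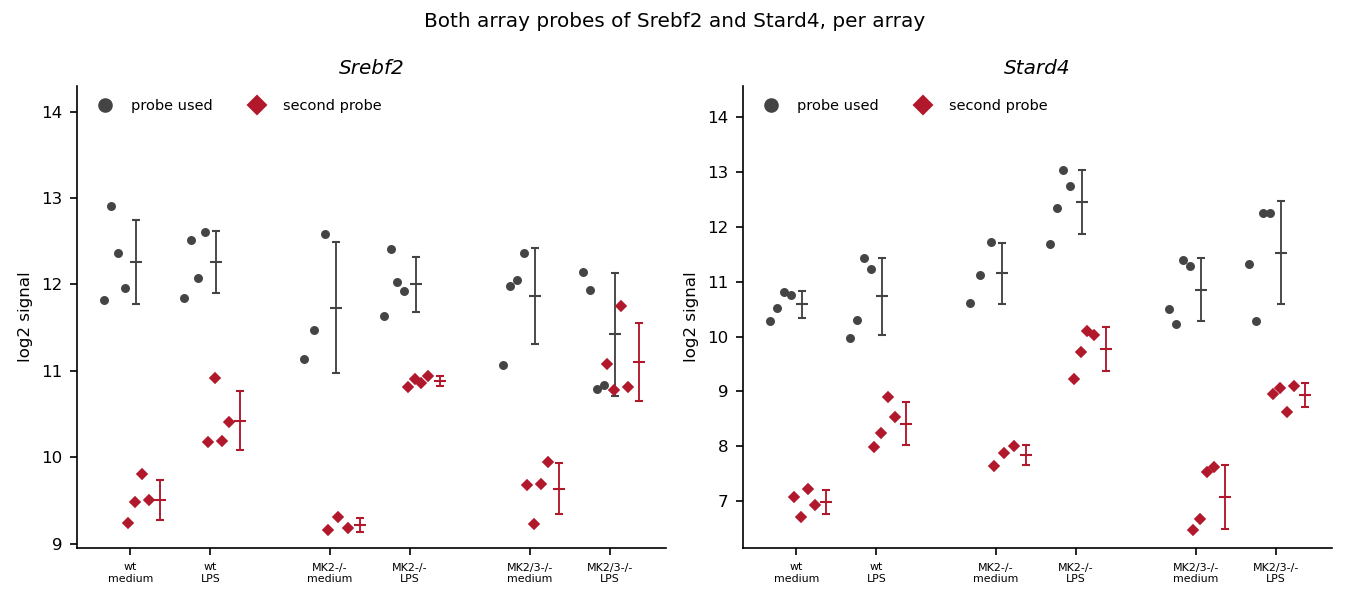
Log2 signal of both probes of Srebf2 and of Stard4 in every array, with circles for the probe used, diamonds for the second probe and bars for the mean and SD of each group. The second probes shift upwards with LPS in all 3 genotypes, whereas medium and LPS overlap for the probes used.

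The LXR receptors themselves, Nr1h2 (LXRβ) and Nr1h3 (LXRα), did not pass in any genotype, with differences between -0.62 and -0.05. Of their targets, Abcg1 (NM_009593), the exporter that loads cholesterol onto HDL, fell in all 3 genotypes. The wt arrays read 13.69, 14.54, 13.82 and 13.72 in medium and 12.15, 12.55, 12.44 and 12.15 after LPS, a fall to 0.325 of the medium signal (difference -1.62, SE 0.308, adjusted p = 0.000761). In MK2-/- BMDM, 13.92, 14.49 and 13.59 fell to 12.63, 12.62, 12.01 and 12.71 (-1.51, SE 0.333, adjusted p = 0.002603), and in MK2/3-/- BMDM 14.43, 15.04, 13.63 and 13.51 fell to 13.22, 13.57, 12.61 and 12.93 (-1.07, SE 0.308, adjusted p = 0.0136). The groups did not overlap in wt and MK2-/- BMDM, and in MK2/3-/- BMDM LPS replicate 2 lay just above the lowest medium array. That last call ended without MK2/3-/- medium replicate 2 or LPS replicate 3 (adjusted p between 0.0509 and 0.0604), and with arrays scaled to their 75th percentile it read -0.69 (adjusted p = 0.112). Over the alternative settings and single arrays left out, it was kept in 14 of 19 repeats (adjusted p up to 0.137).

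Mylip (NM_153789), the gene of IDOL, fell in wt BMDM from 12.57, 13.03, 12.93 and 12.65 to 10.75, 11.81, 10.99 and 11.92 (difference -1.43, SE 0.317, adjusted p = 0.002977), with all LPS arrays below all medium arrays. It fell by 1.09 (SE 0.317, adjusted p = 0.0147) in MK2/3-/- BMDM, a call that ended without medium replicate 2 or LPS replicate 3 (adjusted p between 0.0553 and 0.0565) or with the 75th percentile scaling (-0.84, adjusted p = 0.0547). The MK2/3-/- call of Mylip was kept in 15 of 19 repeats over all settings and left-out arrays (adjusted p up to 0.0626). Mylip read -0.85 (SE 0.342, adjusted p = 0.0937) in MK2-/- BMDM. Its second probe gave -1.26, -0.85 and -1.14. Abca1 (NM_013454), the exporter to lipid-poor apolipoprotein A-I, did not follow. It read 10.99, 12.69, 12.31 and 11.55 in wt BMDM in medium and 11.14, 12.22, 12.36 and 11.66 after LPS, a difference of -0.04 with a 95% interval from -0.79 to 0.71, and 0.41 and 0.61 in MK2-/- and MK2/3-/- BMDM. Spread between cultures was large for this gene, with wt replicates 1 and 4 low and 2 and 3 high in both treatments. The interval comes from the fit without pairing by culture and so includes that spread.

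Ch25h (NM_009890), which makes 25-hydroxycholesterol, an oxysterol that blocks SREBP processing and activates LXR, had the largest change of the 31 genes in each genotype. The wt arrays read 8.82, 9.94, 9.66 and 9.27 in medium and 13.60, 14.95, 15.06 and 14.56 after LPS, which is 34.8-fold higher (difference 5.12, SE 0.451, adjusted p = 8.871e-08). MK2-/- BMDM gave 8.43, 9.80 and 10.80 in medium and 14.51, 14.81, 14.84 and 14.92 after LPS, 34.2-fold higher (5.10, SE 0.487, adjusted p = 2.676e-07). In MK2/3-/- BMDM the medium arrays read 10.93, 11.22, 9.27 and 10.83 and the LPS arrays 14.08, 14.65, 14.39 and 14.64, 14.7-fold higher (3.88, SE 0.451, adjusted p = 2.149e-06). No LPS array of any genotype was near a medium array. Soat1 (NM_009230), the endoplasmic reticulum enzyme that stores cholesterol as esters, read -0.38, -0.55 and -0.13 with LPS in wt, MK2-/- and MK2/3-/- BMDM. In MK2-/- BMDM, where 33% of all genes had groups without overlap, the Soat1 arrays fell without overlap, from 11.30, 11.25 and 11.57 to 10.85, 10.69, 10.83 and 10.94, but did not pass (adjusted p = 0.0948). In contrast, 3 of the 11 alternative settings called the fall, among them the culture as a block (adjusted p = 0.033).

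Of the pair of fatty acid genes, Fasn (NM_007988), the fatty acid synthase, had differences between -0.15 and 0.48 and did not pass. Scd2 (NM_009128), a desaturase that makes monounsaturated fatty acids, was lower after LPS in all 3 genotypes by -0.93, -1.73 and -1.33 without passing, and its LPS arrays spread widely within groups (SD between 1.12 and 1.39). In wt BMDM it read 10.83, 9.10, 8.85 and 9.10 in medium and 10.34, 7.04, 8.04 and 8.72 after LPS, while the summed stromal markers of the same arrays were 110976, 4633, 20767 and 37531 in medium and 92943, 4175, 20075 and 36926 after LPS. In MK2/3-/- BMDM after LPS it read 6.61, 6.53, 6.96 and 9.07 beside stromal sums of 1038, 2113, 13016 and 51550. The culture with the highest stromal sum thus had the highest Scd2 signal in each of the 6 groups. Leaving those cultures out, a choice made after seeing the data, takes the highest Scd2 array from each group, so that a smaller spread is built in. It also leaves fewer than 3 arrays of MK2-/- BMDM in medium. In that setting Scd2 fell by 1.99 (adjusted p = 0.006798) in MK2-/- and by 1.67 (adjusted p = 0.006929) in MK2/3-/- BMDM and read -1.08 (adjusted p = 0.0920) in wt. The part of stromal cells in the measured levels was not tested. With the culture as a block the MK2-/- fall passed as well (adjusted p = 0.043).

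**Figure D4:**
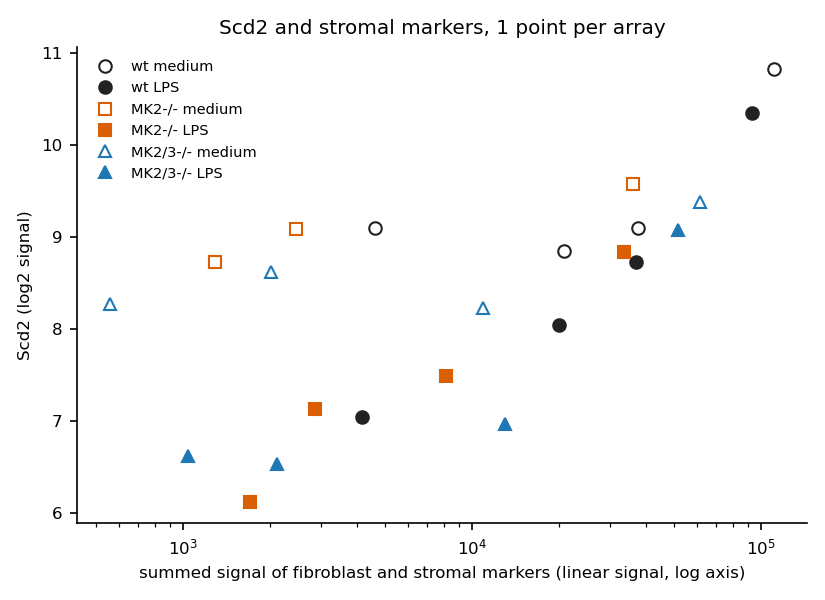
Scd2 log2 signal against the summed linear signal of 8 fibroblast and stromal markers on a log axis, with 1 point per array, open for medium and filled for LPS. In LPS-treated BMDM of each genotype the array with the most stromal signal has the most Scd2, with 10.34 for wt, 8.84 for MK2-/- and 9.07 for MK2/3-/- BMDM, and wt replicate 1 is highest with and without LPS.

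Other genes of the neighbouring pathways were followed as well, in lists whose share of calls can be read against the 17.9%, 19.6% and 25.8% of all genes called in wt, MK2-/- and MK2/3-/- BMDM. Among 11 fatty acid genes of SREBP and LXR, 0 rose and 2 fell in wt, 0 rose and 1 fell in MK2-/- and 1 rose and 1 fell in MK2/3-/- BMDM. Lpin1, a phosphatidate phosphatase, fell by 2.29, 2.57 and 3.32 in the 3 genotypes and Fads1 fell by 0.78 in wt BMDM, while Acaca, the acetyl-CoA carboxylase, rose by 0.49 in MK2/3-/- BMDM. Lpin1 was well above background on 20 of 23 arrays, with a lowest log2 signal of 2.55, so that the size of its fall is uncertain. Of the 25 LXR partners and sterol handling genes, 1 rose and 3 fell in wt, 1 rose and 4 fell in MK2-/- and 2 rose and 4 fell in MK2/3-/- BMDM, which is 4, 5 and 6 of 25 and close to the share over all genes. Rxrb, which encodes a partner receptor of LXR, fell by 1.23, 1.07 and 1.26, and Nceh1, a cholesteryl ester hydrolase, by 0.83, 0.94 and 0.90. Stard5, a sterol-binding protein of the STARD4 family, rose by 1.57, 1.54 and 1.70. None of these other genes named here passed in a comparison between genotypes.

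In medium, none of the 31 genes differed between genotypes after adjustment by limma, and 2, 4 and 1 had an unadjusted p under 0.05 for MK2-/- against wt, MK2/3-/- against wt and MK2/3-/- against MK2-/-. These comparisons called 0.0115%, 0.0769% and 0.0461% of all genes after adjustment, and 3.33%, 4.70% and 3.48% before it. After LPS, the adjusted count was 0 of 31 for MK2-/- against wt (0.0308% of all genes), 1 for MK2/3-/- against wt (1.80%) and 0 for MK2/3-/- against MK2-/- (0.192%), and the unadjusted counts were 5, 7 and 3 (7.49%, 13.8% and 7.77% of all genes). The comparisons of both knockouts with wt share the wt arrays. Groups did not overlap for 2 of the 31 genes in medium and 3 after LPS for MK2-/- against wt (6.7% and 3.62% of all genes). For MK2/3-/- against wt they did not overlap for 3 genes in medium and 3 after LPS (4.09% and 6.02%).

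Soat1 was the gene that passed. It read 9.71, 10.33, 10.66 and 10.41 in wt BMDM in medium and 9.38, 9.65, 10.44 and 10.12 after LPS, while the MK2/3-/- arrays read 11.35, 11.19, 11.00 and 11.25 in medium and 11.04, 10.92, 11.27 and 11.05 after LPS. MK2/3-/- BMDM were thus 2.26-fold higher after LPS (difference 1.18, SE 0.205, adjusted p = 0.005918) and 1.89-fold higher in medium (0.92, SE 0.205, adjusted p = 0.182). MK2-/- BMDM were 2.14-fold higher in medium (SE 0.221 on the log2 scale, adjusted p = 0.311) and 1.91-fold higher after LPS (0.93, SE 0.205, adjusted p = 0.205). No knockout array overlapped with a wt array in either treatment, and the call was kept without the stroma-rich cultures (1.01, adjusted p = 0.0347). With only the LPS-treated pair of groups fitted it was lost (adjusted p = 0.191), as it was by the methods' t-test (adjusted p = 0.258). Soat1 lies on chromosome 1, as does Mapkapk2, with 402 annotated genes between them.

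For the 31 genes as a list, values of the knockouts were more often above those of wt, both after LPS and in medium. The genes were read on the same arrays and are not independent observations, and genotype and slide cannot be told apart here. After LPS the median difference was 0.376 for MK2-/- against wt, with 24 of 31 genes higher, and 0.284 for MK2/3-/- against wt, with 23 of 31 higher. Over all genes the medians were 0.011 and 0.0064, with 13411 and 13191 of 26014 higher. In medium the medians of the list were 0.206 and 0.078, with 23 and 19 of 31 higher. Over all genes they were 0.022 and 0.023 in medium, with 14209 and 14169 of 26014 higher. Without the stroma-rich cultures, the medians of the list after LPS dropped to 0.077 and 0.118, with 19 and 18 of 31 higher. In medium they became 0.124 and -0.101, with 17 and 14 of 31 higher. The wt culture left out there had the highest stromal sum of all, and its LPS array had the lowest wt signal for Hmgcs1, Idi1, Cyp51 and Insig1. The knockouts differed from this. The LPS array left out of MK2-/- BMDM had the highest signal of its group for Hmgcs1 (14.45), Cyp51 (11.02) and Insig1 (10.01). That of MK2/3-/- BMDM was highest for Cyp51 (10.68), but not for Hmgcs1 or Insig1. The part of stromal cells in these values was not tested.

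Below the threshold, Insig1 was 1.56 (SE 0.407, adjusted p = 0.0562) higher in MK2/3-/- than in wt BMDM after LPS, a difference that passed in 4 of the 11 alternative settings, among them the culture as a block (adjusted p = 0.041), and MK2/3-/- LPS replicates 1 and 2 overlapped with wt LPS replicate 3. Srebf1 was 0.68 (SE 0.177) higher in MK2/3-/- than in wt BMDM both in medium (adjusted p = 0.389) and after LPS (adjusted p = 0.0576), with 7.62, 7.19, 6.81 and 6.78 in medium and 7.48, 7.36, 7.85 and 7.30 after LPS against 6.30, 6.63, 6.50 and 6.27 and 6.63, 6.99, 7.06 and 6.61 in wt, without overlap in either treatment. Abcg1 after LPS was 0.76 (SE 0.308, adjusted p = 0.265) higher in MK2/3-/- than in wt BMDM, and every MK2/3-/- array lay above every wt array. Stard4 after LPS read 11.70, 12.36, 13.04 and 12.76 in MK2-/- BMDM and 9.98, 10.30, 11.43 and 11.24 in wt BMDM, a difference of 1.73 (SE 0.436, adjusted p = 0.290), and its second probe gave 1.36 (adjusted p over all probes 0.142). Cyp51 was 0.91 (adjusted p = 0.609) and 0.70 higher in MK2-/- and MK2/3-/- than in wt BMDM after LPS, with overlapping arrays. In the other direction, Srebf2 read -0.84 in MK2/3-/- against wt BMDM after LPS with the probe used (adjusted p over all probes 0.356). Its second probe read 0.68 (adjusted p over all probes 0.132).

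**Figure D5:**
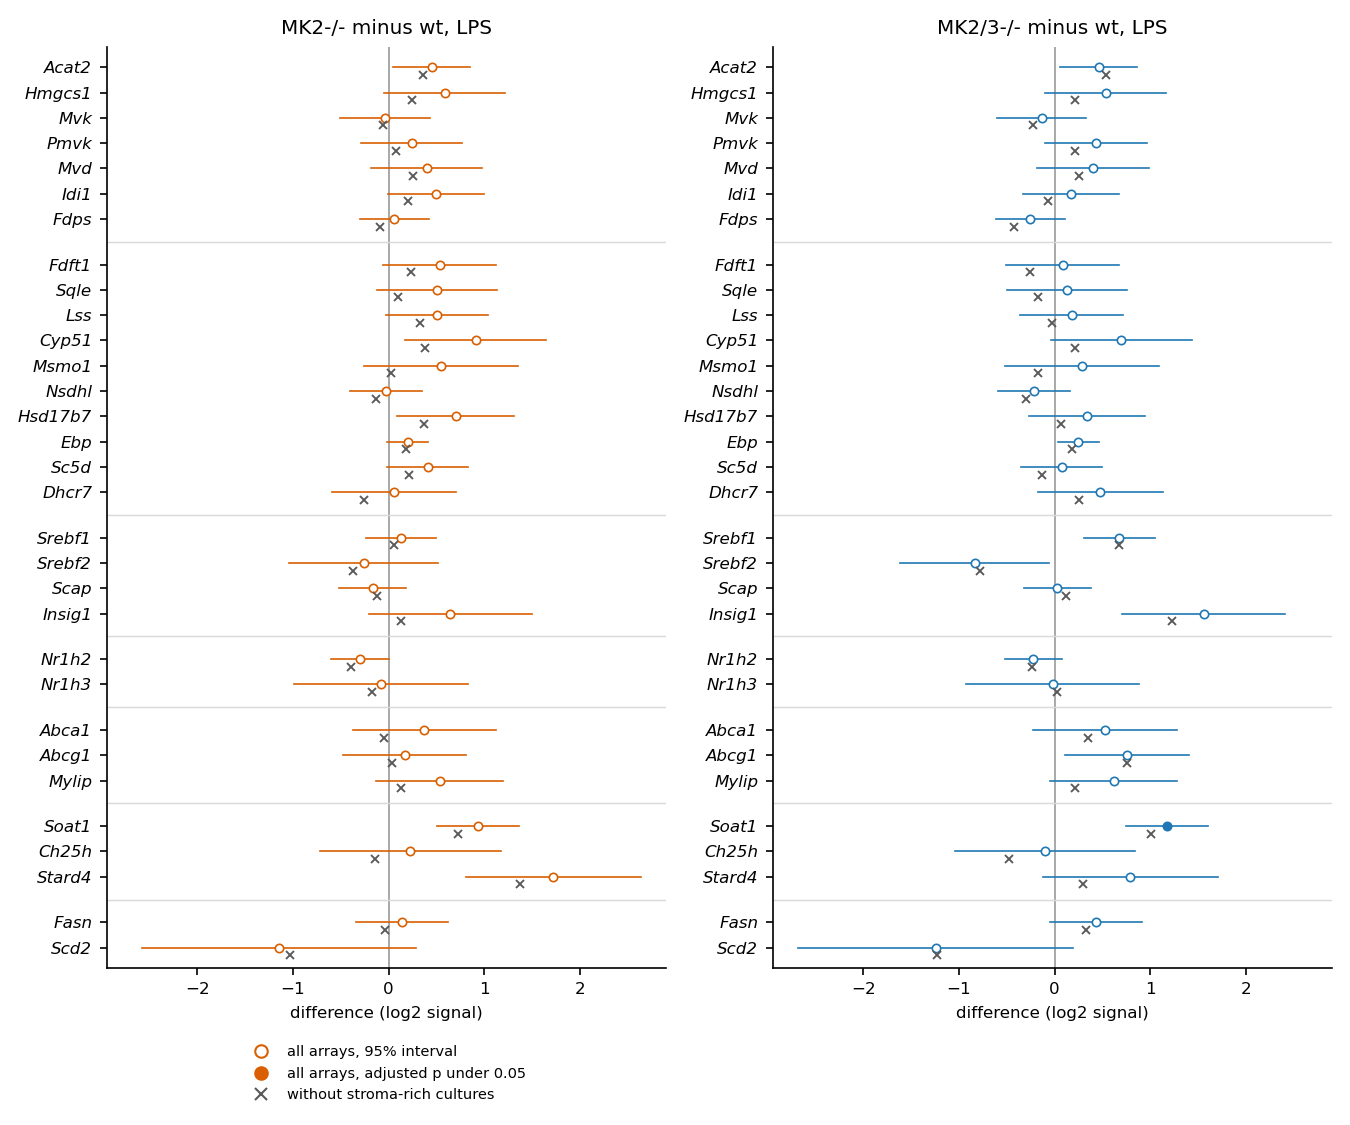
Difference of MK2-/- (left) and MK2/3-/- BMDM (right) from wt after LPS on the log2 signal scale for the 31 genes, in the same order as for the LPS changes. Circles are differences over all arrays with lines for their 95% confidence intervals, filled where the adjusted p was under 0.05 (Soat1 at 1.18 in MK2/3-/- BMDM), and crosses are the differences without the most stroma-rich culture of each genotype, with medians of 0.077 and 0.118.

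Differences between genotypes in the size of the LPS response were tested by the interaction term. No gene of the 31 passed in any of the 3 interactions with limma, and none had an unadjusted p under 0.05, in comparisons in which 0.00384%, 0.0154% and 0% of all genes passed after adjustment and 1.89%, 4.66% and 2.83% before it. For Ch25h, the response of MK2/3-/- BMDM was -1.24 relative to that of wt, with a 95% interval from -2.58 to 0.09, and for Insig1 it was 0.89, from -0.31 to 2.10. The corresponding intervals were -0.44 to 1.35 for Hmgcs1 and -0.36 to 1.46 for Abcg1, and differences of that size remain within the error of these arrays.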

How the data were processed

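RNA of 23 BMDM samples was hybridized to 1-colour Agilent mouse 8x60K arrays. The deposited scanner files hold spot intensities that the authors extracted with Agilent Feature Extraction, and the processed signal among them is already background-corrected. A deposited table of log2 values of the same arrays, which the authors had normalized, served as an alternative. Its columns had medians between -0.0195 and 0.0239 and followed the median-centred quantile-normalized signals at r = 0.99994.

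Here log2 processed signals were quantile normalized, with spots marked as non-uniform or population outliers left out. Before normalization, the 75th percentile of the arrays ran from 7.63 (MK2/3-/- medium replicate 1) to 9.37 (wt LPS replicate 4). The share of probes well above background ran from 47.5% to 69.0%, on MK2/3-/- medium replicates 1 and 2. Of 55681 probes, 29150 carried a RefSeq name, of which 27509 matched the reference tables, and each of 26014 genes was read from the probe with the highest mean over all arrays. The study's methods chose probes by LPS induction in wt BMDM, a rule that selects on the contrast tested and was therefore run as an alternative. All 23 arrays were fitted together in 6 groups with limma 3.58.1 in R 4.3.3 (lmFit and eBayes), with Benjamini-Hochberg adjustment over 26014 genes and a threshold of 0.05. Single genes were also compared by exact two-sided permutation tests, whose smallest p is 0.0286. These tests treat medium and LPS arrays of 1 culture as unpaired. The number of arrays limits the precision. The methods describe independent experiments, and the culture numbers of the labels pair medium and LPS arrays: all 11 pairs of the same culture deviated together (r between 0.392 and 0.782 over 13078 genes, with the numbers taken from the labels), so that a fit with the culture as a random block (correlation 0.255) is given where it changes a call.

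The 31 genes and the other lists were chosen with earlier results of these data known. All 31 genes are named, and of the lists of other fatty acid and LXR genes at most the 5 largest calls per comparison. A further list of sterol synthesis and SREBP genes is not reported here. Alternatives were scaling to the 75th percentile, normexp background correction with offset 50 (on median signals), the deposited table, other probe rules, filters on dim genes, a floor of 5, the culture block, fits of only the groups compared, the methods' t-test, single arrays left out and, chosen after seeing the data, the cultures highest in stromal markers left out. The fits were tested on simulated data with changes added to the wt LPS arrays. Of added log2 changes of 1, 34.9% passed, and of changes of 2, 72% passed. A gene that did not pass can therefore still have changed. Promoters came from RefSeq on GRCm38.p6. Figures were drawn with matplotlib 3.10.9.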

Additional observations from a re-analysis of the deposited data

Results flagged for a closer look

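In 9 of 155 groups of 4 arrays tested over the 31 genes, 1 array stood apart from the other 3 by Dixon's test, and chance alone flags about 1 in 20 groups. Scd2 was set apart by 2 arrays, wt medium replicate 1 at 10.83 (nearest array 9.10) and MK2/3-/- LPS replicate 4 at 9.07 (nearest 6.96), which are the arrays with the highest stromal marker sums of their groups. For Abcg1, wt medium replicate 2 read 14.54 (nearest 13.82) and MK2-/- LPS replicate 3 read 12.01 (nearest 12.62). Sqle read 13.07 on MK2-/- LPS replicate 4 (nearest 12.07). Fdft1 read 10.30 on wt medium replicate 3 (nearest 10.15), and Fasn read 5.96 on MK2/3-/- medium replicate 2 (nearest 5.79). Nr1h2 read 14.16 on MK2/3-/- LPS replicate 3 (nearest 13.69), and Scap read 12.50 on MK2/3-/- LPS replicate 4 (nearest 12.98). The causes were not tested.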

How the results depend on the processing

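Of 32 calls of single genes, 16 passed under every setting run and 3 changed direction under 1 setting. Those 3 are the LPS changes of Ebp with signals scaled to the 75th percentile, with values of 0.073, 0.040 and 0.030 for wt, MK2-/- and MK2/3-/- BMDM. The 11 genes changed by LPS in wt became 6 with only the groups compared fitted, 5 with the methods' t-test and 6 without the stroma-rich cultures, an alternative chosen after seeing the data. Leaving out single arrays gave 6 (without wt LPS replicate 2) to 11. The 9 of MK2-/- BMDM became 5 (without MK2-/- medium replicate 1) to 10, and the 11 of MK2/3-/- BMDM became 7 under each of the 75th percentile scaling, the fit of only the groups compared and the t-test, and 8 to 12 without single arrays. That scaling also raised the share of higher calls over all genes from 42.4, 41.0 and 43.6% to 53.9, 49.8 and 51.0% in wt, MK2-/- and MK2/3-/- BMDM.

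With the culture as a replicate block, 14 genes passed with LPS in MK2-/- BMDM and 2 in MK2/3-/- against wt after LPS, where Insig1 joined Soat1. The genes added in MK2-/- BMDM were Hsd17b7, Insig1, Soat1, Stard4 and Scd2, and Sc5d was added in MK2/3-/- BMDM. The block changed no other call.

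Between genotypes, normexp called 1 gene for MK2/3-/- against wt in medium and 1 for MK2-/- against wt after LPS, Soat1 in both cases, and the latter count was 0 to 1 without single arrays (1 without wt LPS replicate 3). For MK2/3-/- against wt after LPS the count of 1 became 2 with the 75th percentile, normexp or the floor of 5, 3 with dim genes left out, 0 with only the groups compared fitted or the t-test, and 1 to 3 without single arrays (3 without wt LPS replicate 3, and 2 without MK2/3-/- LPS replicate 4). For the remaining comparisons between genotypes and the interactions, the count was 0 without any single array. The causes of these shifts were not tested beyond the fewer arrays or genes that the settings leave.

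The limits are the 3 or 4 arrays per group, the single slide per genotype, the stromal signal of some cultures and the signal of markers of other cells. Further limits are the uneven signal of the MK2/3-/- medium arrays before normalization and, for 22 of the 31 genes, a reading by 1 probe only.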
